A study of Mus musculus with 4 samples.

Results

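The loci of 9 transcription factor genes of the osteoblast lineage, Runx2, Sp7, Dlx3, Dlx5, Dlx6, Msx1, Msx2, Twist1 and Runx1, were examined for chromatin accessibility in mouse bone mesenchymal stem cells (MSCs). A locus was the gene with 20 kb on either side, in the GENCODE M21 annotation, and its members were all ATAC-seq peaks overlapping that span, wherever they lay. This gave 100 of the 128055 peaks of the table by position alone. ATAC-seq measures open chromatin by the DNA that a transposase can cut and tag. The 4 libraries came from MSCs of the hind limb bones of mice aged 3 to 5 months, sorted as CD45-/TER-119-/Sca-1+/CD140a+ cells after growth in hypoxia, then kept for a week in hypoxia (2% O2, 2 libraries) or in normoxia (21% O2, 2 libraries), at 50000 cells per library. The normoxia cells had thus also been in hypoxia before the sort, and the hypoxia cells are the reference group. The oxygen levels were compared to ask whether atmospheric oxygen alters the accessible regions of the genome.

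RUNX proteins bind DNA through a Runt domain, with CBFβ as their partner. Runx2 is required for osteoblast formation, and Sp7 (osterix), a zinc finger factor, acts downstream of it. Runx1 is known best from blood formation and is also present in skeletal progenitors. The Dlx and Msx genes encode homeodomain proteins of limb, skull and tooth patterning, of which Dlx3 and Dlx5 favour osteoblast genes. Twist1 is a basic helix-loop-helix factor that holds back Runx2 function in progenitors. Runx1 and Runx2 are each transcribed from a distal and a proximal promoter.

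The bases just upstream of 4 of the start sites are shown because the promoter peaks of these genes carry much of the result below and because they fall into 2 kinds. They were read from the RefSeq mouse genome (GRCm38.p6), 250 bases ending at the base before the most upstream start inside the peak, on the strand of the gene. Capitals mark every CG dinucleotide and every RUNX motif (TGTGGT or its complement ACCACA).
Twist1, chr12:33957421-33957670, plus strand: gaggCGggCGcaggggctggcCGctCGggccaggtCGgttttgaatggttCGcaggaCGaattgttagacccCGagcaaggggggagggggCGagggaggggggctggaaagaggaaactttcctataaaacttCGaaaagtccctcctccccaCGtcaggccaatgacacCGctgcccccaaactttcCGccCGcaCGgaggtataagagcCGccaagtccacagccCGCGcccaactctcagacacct
Runx1 proximal, chr16:92697329-92697578, minus strand: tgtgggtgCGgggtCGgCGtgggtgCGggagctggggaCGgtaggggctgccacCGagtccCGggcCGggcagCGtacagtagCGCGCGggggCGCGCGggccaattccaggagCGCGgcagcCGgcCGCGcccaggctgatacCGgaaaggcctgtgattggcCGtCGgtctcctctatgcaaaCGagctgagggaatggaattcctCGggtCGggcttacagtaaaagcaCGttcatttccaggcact
Runx1 distal, chr16:92826150-92826399, minus strand: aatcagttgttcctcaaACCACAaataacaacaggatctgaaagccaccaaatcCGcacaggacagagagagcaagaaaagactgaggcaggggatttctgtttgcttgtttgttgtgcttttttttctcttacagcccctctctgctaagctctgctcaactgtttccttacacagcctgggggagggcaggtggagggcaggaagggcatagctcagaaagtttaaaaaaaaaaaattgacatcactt
Runx2 distal, chr17:44814798-44815047, minus strand: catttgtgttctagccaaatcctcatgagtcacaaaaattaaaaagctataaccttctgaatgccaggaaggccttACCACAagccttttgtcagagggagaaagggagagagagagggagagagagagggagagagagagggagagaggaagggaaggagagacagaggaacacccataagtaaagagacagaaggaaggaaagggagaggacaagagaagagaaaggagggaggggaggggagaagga
The Twist1 and Runx1 proximal stretches held 18 and 27 CG dinucleotides, with no RUNX motif. The distal stretches of Runx1 and Runx2 held 1 and 0 CG dinucleotides and 1 RUNX motif each. The RefSeq promoter table (250 bases before to 50 after a start) matched 5 of the 9 genes with 6 windows. Over those windows the ratio of observed to expected CG dinucleotides was 0.137 at Runx1 distal and 0.143 at Runx2 distal, against 1.01 at Runx1 proximal and 0.827 at Twist1. The median over all 32851 windows of the table was 0.384. A RUNX motif was found in 2 of the 6 windows and in 16.8% of all windows.

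The library totals ranged from 26680936 to 29965523 reads, with a median of 33 to 48 reads in a peak, and values are given as deposited, scaled by the library total and not by peak width. For tests, values were also divided by relative log expression (RLE) factors, which were 1.13 and 1.23 in hypoxia against 0.81 and 0.89 in normoxia. This step decides how much of the difference is read as a change of single peaks, because the median log2 fold change (normoxia over hypoxia) of all peaks was −0.44 as deposited and −0.0040 after scaling. All 7 marker genes of the sorted MSCs, Pdgfra (CD140a) and Ly6a (Sca-1) among them, had a promoter peak. Of the defining blood markers Ptprc (CD45), Itgam, Cd79a and Cd3e had none, while Spi1 and Ikzf1 each had 1 weak peak and the summed signal of the blood list (strongest promoter peak per gene) was 34.7 to 40.7 in hypoxia and 25.5 to 36.4 in normoxia. Of 3 red cell markers Hbb-bt had none, and of 4 endothelial markers Cdh5 and Tie1 had none. The study describes the libraries of a group as biologically independent experiments, and the labels number them without saying so.

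After RLE scaling, the promoter peaks of Twist1 and Dlx5 and 2 wide peaks in the body of Runx1 passed the test as lower in normoxia, and no peak of the 9 loci passed it as higher. The test was limma on log2(value + 1) after RLE scaling, fitted over the whole table, with a Benjamini-Hochberg adjusted p (FDR) under 0.01. Over all peaks 4.57% were called lower and 1.77% higher, so the 4 of 100 called here was close to the background. At an unadjusted p under 0.05 in the same fit, 22 peaks of the loci were lower and 8 higher, against 16.8% and 12.5% of all peaks. The test of edgeR on the recovered reads called 6 lower and 0 higher, against 5.7% and 2.54% of all peaks, so that its count of lower peaks was also near the background. The median log2 fold change of the 100 peaks was −0.07, with 57 below 0. On the values as deposited 28 peaks were called lower, where 24.0% of all peaks were, and the median was −0.53.

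The 4 calls depended on how libraries were scaled. With equal totals over peaks limma called 0 peaks lower and 2 higher, both in the body of Runx2. Over the 100 peaks, 6 were then lower and 22 higher at an unadjusted p under 0.05. The share of all peaks at that p was not taken under these scalings. Quantile normalization left 0 calls in either direction, with 10 lower and 7 higher at that p, where 922 of all peaks were called lower and 1159 higher. Cyclic loess, which removes any trend of the difference with peak strength, called 1 other peak lower and 1 higher, against 1681 and 1819 of all peaks. The log2 fold change of each of the 4 peaks stayed negative under these scalings. With either hypoxia library left out, limma called no peak of the whole table. Without normoxia replicate 1 all 4 peaks still passed, and without normoxia replicate 2 the Dlx5 promoter (limma FDR 0.0203) and the weaker of the Runx1 peaks (limma FDR 0.0129) did not.

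The Twist1 promoter was the most accessible promoter of the 9 genes per kilobase, and it had the larger change of the 2 promoters that were called. Its peak (chr12:33955701-33959400) spans the start site. The signal was 215 and 209 in hypoxia against 105 and 97.8 in normoxia. Both normoxia values lay far below both hypoxia values. The log2 fold change after scaling was −0.58 ± 0.12 (SE, n = 2 per group), with an FDR of 0.00125 by limma. The difference was −0.30 with equal totals and −0.26 with cyclic loess, where it did not pass. Downstream of the gene, a peak at chr12:33965601-33969400 had 72.2 and 74.1 in hypoxia against 39.0 and 36.4 in normoxia, with a log2 fold change of −0.47 that missed the threshold (limma FDR 0.0372).

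**Figure D1:**
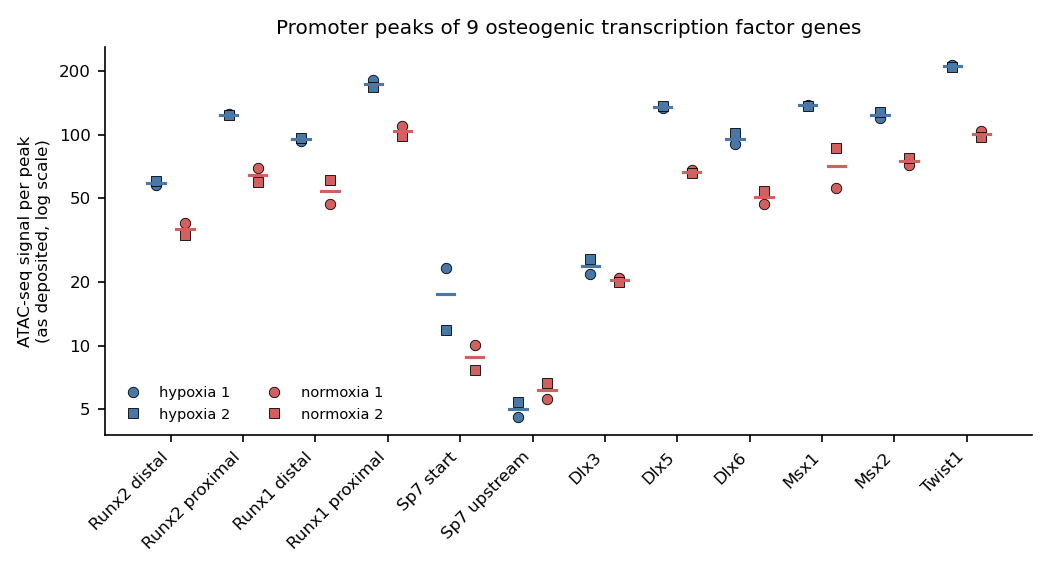
Signal as deposited (log axis) of the 12 promoter peaks of the 9 genes. Circles and squares are the replicate 1 and replicate 2 libraries, blue for hypoxia and red for normoxia, and bars are the means of 2 libraries. At Twist1 the hypoxia libraries sit at 215 and 209 and the normoxia libraries at 105 and 97.8, while at the weak upstream Sp7 peak the normoxia libraries sit above.

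The Dlx5 and Dlx6 genes are neighbours on chromosome 6 that are transcribed towards each other, and they share 6 peaks within 20 kb. The Dlx5 promoter peak (chr6:6878501-6883600) had 133 and 136 in hypoxia against 67.8 and 66.1 in normoxia. Its libraries agreed closely within each group, and its log2 fold change was −0.53 ± 0.13 (limma FDR 0.00614). The Dlx6 promoter peak (chr6:6860001-6865000) had 90.2 and 102 in hypoxia against 47.2 and 54.1 in normoxia. The change of −0.44 ± 0.14 (log2) missed the threshold (limma FDR 0.0316). Between the gene ends lay a peak of 800 bases that the caller had assigned to hypoxia alone. It is shown by its central 300 bases because it had the largest difference of the Dlx loci and because it contains a simple repeat. Capitals mark the repeat.
Dlx5-Dlx6 hypoxia-only peak, chr6:6874851-6875150, plus strand: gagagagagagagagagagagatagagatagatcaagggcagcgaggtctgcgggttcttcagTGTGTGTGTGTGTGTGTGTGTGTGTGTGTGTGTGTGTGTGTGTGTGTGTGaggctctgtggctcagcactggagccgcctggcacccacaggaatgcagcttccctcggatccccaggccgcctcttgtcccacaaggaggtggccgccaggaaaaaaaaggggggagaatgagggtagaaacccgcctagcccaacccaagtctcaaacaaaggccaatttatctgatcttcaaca
The TG repeat runs over 50 bases, and no motif searched was found in the 300 bases. The peak had 11.7 and 10.9 in hypoxia against 3.00 and 3.00 in normoxia, with 8 and 9 reads behind the normoxia values. This gave a log2 fold change of −1.22 ± 0.34 (limma FDR 0.0151). It was the peak that cyclic loess called (limma FDR 0.0096). Since the caller had set it apart by the same libraries, its difference is a description.

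Of the other homeobox genes, Msx1 had a promoter peak with much spread in normoxia. That peak (chr5:37822501-37825200) had 138 in both hypoxia libraries against 56.2 and 86.4 in normoxia, and a log2 fold change of −0.50 ± 0.14 (limma FDR 0.0151). Without normoxia replicate 1 the log2 fold change was −0.25, and without normoxia replicate 2 it was −0.74, which passed (limma FDR 2.65e-05). The Msx2 promoter peak (chr13:53471401-53476600) had 121 and 129 in hypoxia against 72.0 and 78.1 in normoxia. The log2 fold change was −0.25 ± 0.13 (limma FDR 0.187) and came to 0.04 with equal totals. The Dlx3 promoter peak (chr11:95119801-95122100) was weak, with 21.9 and 25.8 in hypoxia against 21.0 and 20.02 in normoxia, and the log2 fold change was 0.25 ± 0.21 (limma FDR 0.455). The strongest peak of the Dlx3 locus lay in the upstream flank (chr11:95096201-95101500), with 114 and 109 in hypoxia against 82.1 and 77.4 in normoxia, a log2 fold change of −0.00087 after scaling. None of the 8 peaks of the Dlx3 locus had both normoxia libraries below both hypoxia libraries after scaling, a pattern that 29.6% of all peaks showed. As deposited, 7 of the 8 had it, against 59.5% of all peaks. In 3 of the 8 both normoxia libraries lay above, as in 27.4% of all peaks.

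At Runx2 no peak passed the test. The gene (chr17:44495987-44814797, minus strand) had 33 peaks covering 15.1% of its span. The proximal promoter peak (chr17:44733501-44739100) had 125 and 124 in hypoxia against 69.3 and 59.7 in normoxia. This was a log2 fold change of −0.47 ± 0.14 with a limma FDR of 0.0197, and edgeR on the recovered reads passed it (edgeR FDR 0.00862). It also passed without normoxia replicate 1 (limma FDR 0.00147). The distal promoter peak (chr17:44814101-44815600), which holds the CG-poor stretch shown above, had 57.7 and 60.5 in hypoxia against 38.2 and 33.4 in normoxia. Its log2 fold change was −0.24 ± 0.16 (limma FDR 0.342) and came to 0.04 with equal totals.

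The other 31 peaks of the Runx2 locus had a median log2 fold change of 0.10 after scaling, with 18 above 0, and of −0.37 as deposited, with 25 below 0. At an unadjusted p under 0.05, 5 of them were higher and 1 lower. Of the 107031 peaks of the whole table outside promoters of any protein-coding gene, 14915 were higher and 13294 lower at that p. Their median log2 fold change was 0.05, and 0.09 for those with a mean value under 50. The 31 Runx2 peaks, by contrast, include the promoter peak of Supt3. The strongest of the 31 Runx2 peaks was a gene-body peak near the 3′ end (chr17:44499701-44502600), with 205 and 204 in hypoxia against 122 and 124 in normoxia and a log2 fold change of −0.25 ± 0.11 (limma FDR 0.135). A gene-body peak chosen here after its values were seen (chr17:44706301-44711400) went the other way after scaling, with 104 and 100 in hypoxia against 87.3 and 91.1 in normoxia. Its log2 fold change was 0.28 ± 0.13 (limma FDR 0.14), and it was called higher with equal totals (limma FDR 0.0024) and with cyclic loess (limma FDR 0.00596). The values as deposited were still lower in normoxia there, so that the direction is relative to the other peaks.

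**Figure D2:**
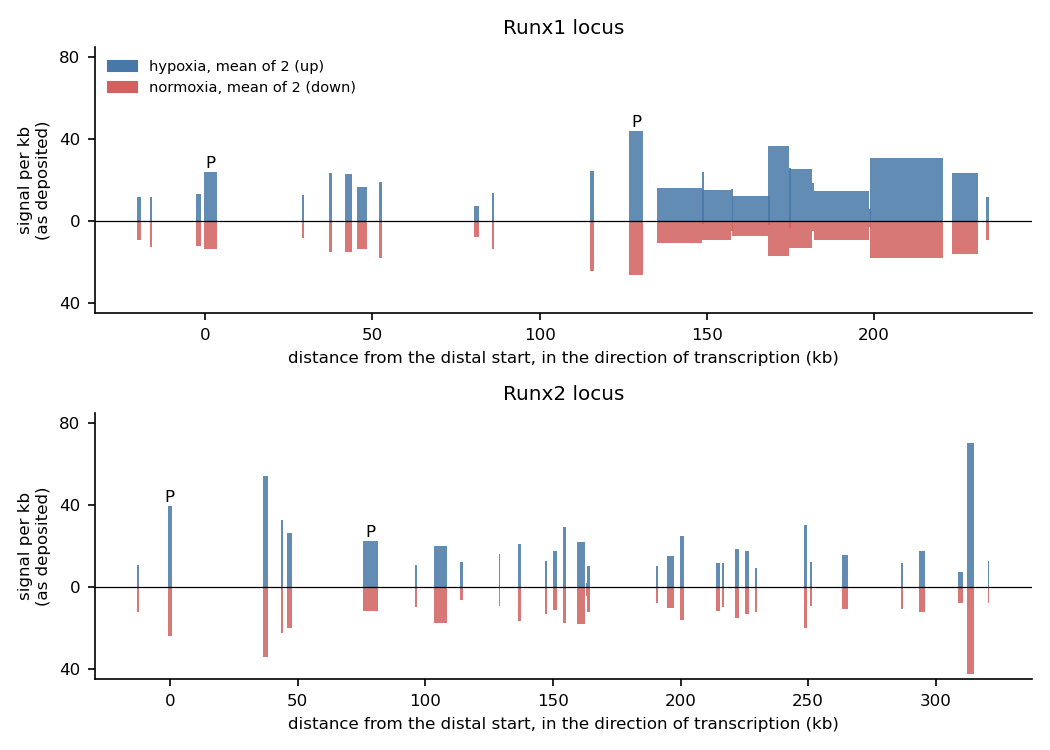
Mean signal per kilobase as deposited at the Runx1 (top) and Runx2 (bottom) loci against the distance from the distal start in kilobases, in the direction of transcription. Bars point up for hypoxia and down for normoxia (means of 2 libraries) and are as wide as the peaks, or 0.6 kb where a peak is narrower, and P marks promoter peaks. Runx1 shows a near unbroken block downstream of its proximal promoter, whose blue bars reach 36.6 per kb, and Runx2 shows separate narrow peaks.

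The Runx1 locus (gene chr16:92601466-92826149, minus strand) stood out by width. Its 28 peaks covered 43.9% of the span. Downstream of the proximal promoter, 13 peaks abutted each other without a gap over 85.5 kb (chr16:92605701-92691200) and held 70.8% of the signal of the locus. The widest of them spanned 21800 bases, a width that 72 peaks of the table reached (0.0562%). The summed signal of the run was 1828 and 1816 in hypoxia against 994 and 1109 in normoxia as deposited. After scaling it was 1611 and 1479 against 1228 and 1251, a ratio of 0.802. Both normoxia sums lay below both hypoxia sums, and the exact two-sided permutation p of 0.333 is the smallest that 2 against 2 libraries allow.

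Within that run, 7 peaks were shared by both conditions and 6 were slivers of 100 to 400 bases between them that the caller assigned to hypoxia. All 7 shared peaks had a negative log2 fold change, from −0.62 to −0.10, and 6 of the 7 had both normoxia libraries below both hypoxia libraries. These are strong peaks. Of the strongest 10% of all peaks, 90.5% had a negative log2 fold change and 78.2% had both normoxia libraries below both hypoxia libraries. With equal totals 3 of the 7 turned positive, and with quantile normalization and with cyclic loess 4 did. The slivers held at most 24 reads in any library. The peak at chr16:92651701-92657900 had 228 and 226 in hypoxia against 97.4 and 114 in normoxia. This was the lowest FDR of all 100 peaks, with a log2 fold change of −0.62 ± 0.12 (limma FDR 0.000495). Its neighbour at chr16:92644601-92651600 had 179 and 175 against 90.7 and 91.8, with a log2 fold change of −0.47 ± 0.12 (limma FDR 0.00773). The widest peak (chr16:92605701-92627500) had 651 and 690 in hypoxia against 354 and 428 in normoxia, with a log2 fold change of −0.31 ± 0.09 (limma FDR 0.0157, and 2.37e-05 without normoxia replicate 2). The central 300 bases of the peak with the lowest FDR, which overlap no annotated exon, are shown with capitals for the motif matches found there, a Twist E-box (CATNTG), an AP-1 motif (TGANTCA) and a GC box (GGGCGG).
Runx1 gene-body peak, chr16:92654651-92654950, minus strand: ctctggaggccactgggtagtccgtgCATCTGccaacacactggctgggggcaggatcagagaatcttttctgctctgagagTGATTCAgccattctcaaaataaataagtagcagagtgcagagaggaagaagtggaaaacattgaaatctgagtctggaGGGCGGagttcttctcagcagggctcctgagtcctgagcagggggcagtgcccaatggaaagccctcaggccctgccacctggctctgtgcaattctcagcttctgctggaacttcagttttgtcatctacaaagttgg
Each of these motifs is common in windows of this length, with a Twist E-box in 53.3%, an AP-1 motif in 20.6% and a GC box in 9.67% of the centres of all peaks.

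Neither promoter of Runx1 passed the test. The proximal promoter peak (chr16:92695301-92699300) had 182 and 168 in hypoxia against 111 and 98.8 in normoxia. Its log2 fold change was −0.26 ± 0.13 (limma FDR 0.159), and it turned to 0.03 with equal totals, 0.06 with quantile normalization and 0.04 with cyclic loess. The distal promoter peak (chr16:92822501-92826500) had 93.8 and 96.9 in hypoxia against 46.8 and 61.4 in normoxia, with a log2 fold change of −0.35 ± 0.14 (limma FDR 0.0964).

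Sp7 had weak promoter peaks and a strong peak upstream. The peak over its start (chr15:102366201-102367500) had 23.4 and 11.9 in hypoxia against 10.1 and 7.68 in normoxia. The lower hypoxia library lay close to the normoxia libraries, and the log2 fold change of −0.41 ± 0.30 (limma FDR 0.374) became 0.09 without hypoxia replicate 1. The peak just upstream (chr15:102368001-102368600) had 4.60 and 5.44 in hypoxia against 5.62 and 6.67 in normoxia, a log2 fold change of 0.65 ± 0.35 (limma FDR 0.213). The strongest peak of the locus lay in the upstream flank (chr15:102375101-102378800), with 165 and 160 in hypoxia against 89.6 and 91.4 in normoxia. Its log2 fold change was −0.36 ± 0.12 and missed the threshold (limma FDR 0.042). In hypoxia this flank peak had 43.9 per kb, against 13.6 per kb at the start site.

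The order of the promoter peaks by signal per kilobase in hypoxia ran from Twist1 (57.3) through Msx1 (51.1), Runx1 proximal (43.8), Runx2 distal (39.4), Dlx5 (26.4), Msx2 (24.0), Runx1 distal (23.8), Runx2 proximal (22.2), Dlx6 (19.2), Sp7 (13.6) and Dlx3 (10.4) to the upstream Sp7 peak (8.37). The libraries of Msx2 and Runx1 distal overlapped, as did those of Sp7 and Dlx3, and the other neighbours in the order were apart. In normoxia the highest 4 places were the same, from 27.3 at Twist1 to 23.9 at Runx2 distal, but the libraries of neighbours among them overlapped. Signal per kilobase is the sum over a peak divided by the width the caller gave it, and narrow promoters such as Runx2 distal gain from this.

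**Figure D3:**
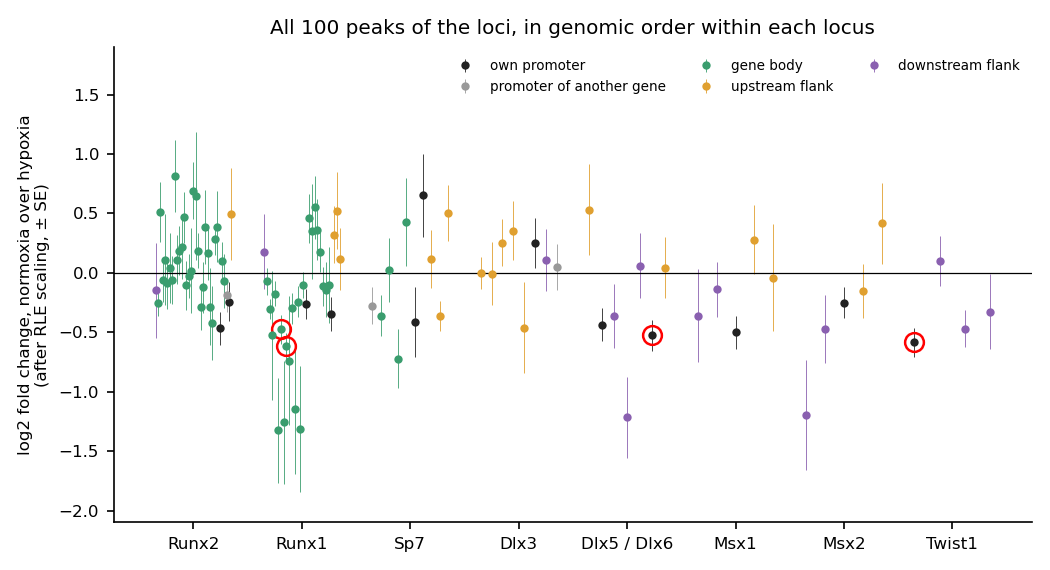
Log2 fold change (normoxia over hypoxia, after RLE scaling, bars ± SE from limma) of the 100 peaks, in genomic order within each locus and coloured by position. Red rings mark the 4 peaks called at an FDR under 0.01, the Twist1 and Dlx5 promoters and 2 gene-body peaks of Runx1, and the 8 hypoxia-only peaks include the lowest points.

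Promoters were compared with the rest of the loci. Of the 12 promoter peaks, 10 had a negative log2 fold change after scaling, 7 with equal totals, 8 with quantile normalization and 9 with cyclic loess. Their median was −0.38, against −0.03 for the 88 other peaks, a difference of −0.35. Among all peaks the medians were −0.24 and 0.05, a difference of −0.29. The classes differ slightly, because over all peaks the promoters of any protein-coding gene counted as promoters. The 88 include 3 peaks at promoters of neighbouring genes. The median promoter peak exceeded the median other peak by 2.70 and 2.61 on the log2(value + 1) scale in hypoxia and by 1.85 and 2.05 in normoxia, where the pooled SD was 0.106 and the exact permutation p was 0.333. Over all peaks the same quantity was 2.15 and 2.05 in hypoxia against 1.70 and 1.76 in normoxia, so that the groups did not overlap in either set. Of the 12 promoter peaks 2 were called lower (16.7%), where 14.6% of all promoter peaks were.

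Strength moved with this contrast. The member promoters had a median value of 84.6 and the other members 15.6, and all promoter peaks averaging 50 or more had a median log2 fold change of −0.33. Among the members, 16 of the peaks outside own promoters reached a mean value of 50, with a median of −0.25 and 14 below 0. Over the whole table, peaks of that strength outside the promoters of any protein-coding gene had −0.20. The other 72 members outside own promoters had a median of 0.04. With cyclic loess the promoter difference shrank to −0.16. How far strength and how far position carry the difference was not tested.

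**Figure D4:**
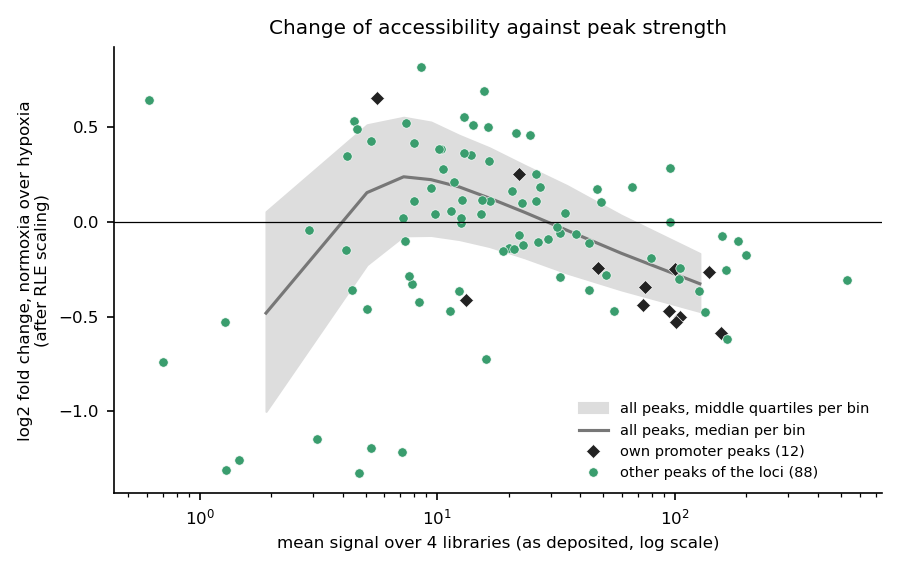
Log2 fold change (normoxia over hypoxia, after RLE scaling) against the mean signal over 4 libraries (log axis). Grey shows the median and middle quartiles of all 128055 peaks in 10 equal bins by strength, diamonds the 12 own promoter peaks and circles the 88 other peaks. The strongest bin has a median of −0.33, and 10 of the 12 promoter peaks lie below 0.

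By position, the 54 gene-body peaks had a median log2 fold change of −0.07 and the 13 downstream peaks −0.33. The 18 upstream peaks had a median of 0.19, with 12 of them above 0. Their median strength was 13.3, and the tenth of all peaks with a median strength of 12.4 had a median log2 fold change of 0.18. The downstream peaks were of like strength, at 11.3, and the gene-body peaks were stronger, at 21.2. On the values as deposited the medians of the 3 classes were all negative, at −0.53, −0.74 and −0.27. The 3 peaks at promoters of neighbouring genes (Supt3 inside Runx2, Aaas beside Sp7 and Dlx4 beside Dlx3) had log2 fold changes from −0.28 to 0.05, and none passed. Gene-body and downstream peaks included all 8 hypoxia-only peaks, of which 6 were the Runx1 slivers and 1 lay downstream of Msx2 (chr13:53461801-53462200, with 5.31 and 10.9 in hypoxia against 4.12 and 0.667 in normoxia). Of all peaks 6.84% were hypoxia-only.

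When all peaks of a locus were summed, 7 of the 9 loci had both normoxia sums below both hypoxia sums after scaling. Of single peaks, 29.6% of all and 78.2% of the strongest 10% showed this pattern. Loci of other genes were not summed, so the count has no background of its own kind. The exceptions were Runx2, with a ratio of normoxia to hypoxia of 0.984, and Dlx3, with 1.06. The lowest ratios were 0.714 at Twist1, 0.736 at Dlx5 and 0.748 at Dlx6, and the Dlx5 and Dlx6 sums share 6 peaks. Runx1 had 0.847, Sp7 0.841, Msx2 0.842 and Msx1 0.779. Over the 9 loci together the ratio was 0.872, and over all nuclear peaks it was 0.9005. With equal totals in each library, Twist1, Dlx5 and Dlx6 still had both normoxia sums below, the ratio turned above 1 at Runx1 (1.04), Sp7 (1.03) and Msx2 (1.03), and both normoxia sums lay above at Runx2 (1.21) and Dlx3 (1.298). Each locus has an exact permutation p no lower than 0.333.

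Promoter peaks were richer in CG dinucleotides than the rest. Member promoter peaks had a median ratio of observed to expected CG dinucleotides of 0.577, and the other members had 0.258, against 0.437 and 0.193 over all peaks. Within the promoters this ratio ran from 0.0917 at the upstream Sp7 peak and 0.252 at Runx2 distal to 0.708 at Twist1 and 0.728 at Dlx3. In the central 300 bases, a RUNX motif was found in 18 of the 100 peaks (18.0%) and in 26.3% of all peaks, a homeobox motif (TAATTN) in 29 and 37.4%, and a Twist E-box in 46 and 53.3%. The hypoxia response core (ACGTG) was found in 15 of the 100 and in 14.9% of all peaks. These are matches of letters on either strand, and differences in base composition between the sets move with them.

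Related regulators were counted for context over 19 genes that comprise RUNX, Dlx, Msx and Twist relatives, their partners and inhibitors, and other factors of the osteoblast lineage. All 19 had promoter peaks, 24 in all, of which 1 was called lower and 0 higher by limma. At an unadjusted p under 0.05, 12 were lower and 0 higher, and edgeR called 3 lower and 0 higher. Among all promoter peaks 39.4% were lower at that p, and limma called 14.6% lower. The share of all promoter peaks that edgeR called was not taken. The median log2 fold change was −0.30. The peak limma called was that of Cbfb, the partner subunit of the RUNX proteins. Cbfb had 263 and 267 in hypoxia against 112 and 150 in normoxia, a log2 fold change of −0.55 (limma FDR 0.00139). Of the 13 promoter peaks of MSC markers, 1 at Ly6a was called lower, and of the 8 peaks of the blood, red cell and endothelial lists limma and edgeR called 0, with 0 at an unadjusted p under 0.05.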

How the data were processed

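ATAC-seq was carried out on 4 libraries, 2 of hypoxia-cultured and 2 of normoxia-cultured mouse MSCs. Per the study's methods and the submitters' processing notes, the authors mapped reads to mm10 with Bowtie2, removed duplicates with Picard and called peaks with chromstaR over both conditions together, so that 1 peak set serves all libraries and a peak's assignment to hypoxia alone comes from the same reads. The authors deposited a signal value per peak and library, named RPKM. Every deposited signal was a whole number of reads times a constant of its library (100% of values within a tolerance of 0.01 reads) and was not divided by peak width, so the reads and library totals could be recovered. Intervals for single values were not computed, since PCR reads are not independent molecules.

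From the deposited signal, RLE factors were computed directly in R 4.3.3. Each was the median ratio of a library to the geometric mean over libraries, rescaled to a geometric mean of 1. Then limma 3.58.1 (trend and robust moderation) was fitted to log2(value + 1) of all 128055 peaks, with no filter on low values. Fold changes on this scale understate the change of weak peaks. The study's methods use edgeR, which was run here (version 4.0.16, with its own RLE factors) on the recovered reads as an alternative. Promoter peaks lay within 1 kb of an annotated start. Named peaks were every promoter peak, the strongest other peak of each locus, every called peak, and up to 5 peaks assigned to 1 group. The members, gene lists and tests were chosen with earlier results of these data known. 1 gene of the list of related regulators is not reported here. Positions are 1-based in mm10, the build of the RefSeq genome used (GRCm38.p6). The authors' columns for all 4 libraries were used. Single-library values and sums over loci were compared by exact permutation tests, for which 2 against 2 libraries give no p below 0.333.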

Additional observations from a re-analysis of the deposited data

How the results depend on the processing

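The 4 peaks called lower became 28 on the values as deposited, 0 with equal totals, 0 with quantile normalization and 1 with cyclic loess. With a pseudocount of 0.1 there were 2, where 4289 of all peaks were called lower. Without trend and robust moderation there were 0, and no peak of the table was called. In that fit 12 peaks of the loci were lower at an unadjusted p under 0.05. At an FDR under 0.05 in the main fit 13 were called lower. The shares of all peaks beside the 12 and the 13 were not taken, so neither count is a result about the loci. The 0 called higher became 2 with equal totals, 1 with cyclic loess, 1 with flanks of 50 kb (a weak peak downstream of Msx2, with a log2 fold change of 1.51) and 1 at an FDR under 0.05 (the Runx2 gene-body peak chr17:44650201-44651600, named after its values were seen). Over all peaks, 1078 were called lower and 8798 higher with equal totals, 922 and 1159 with quantile normalization, and 1681 and 1819 with cyclic loess. The median log2 fold change of −0.07 became −0.53 as deposited, 0.20 with equal totals, and ran from −0.13 to −0.039 with 1 library left out. The promoter difference of −0.35 became −0.16 with quantile normalization and −0.16 with cyclic loess, and ran from −0.31 to −0.24 with 1 library left out. The 7 loci with lower sums became 3 with equal totals.

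The replicate block, a fit with the replicate number as a term, called 7 peaks lower and 0 higher, adding the promoters of Msx1 and Runx2 (proximal) and the hypoxia-only peak between Dlx5 and Dlx6. That fit called 8468 lower and 3912 higher over all peaks. The deviations of same-numbered libraries correlated at 0.011 over all peaks, so no shared deviation was seen. With 1 difference per group this cannot decide whether same-numbered libraries came from the same sorted cells. The labels do not say so, and the study describes dividing the sorted cells between the oxygen levels. Of the 27 named peaks, edgeR kept the direction, call and approximate size of 24, and it passed the promoters of Msx1 and Runx2 (proximal). At an uncalled Runx1 sliver (chr16:92651601-92651700) the log2 fold change moved from −1.26 with limma to −2.30 with edgeR, and it stayed uncalled. The promoter difference was negative under every alternative run. Of the named peaks that were not called, up to 7 changed sign under another scaling (equal totals) and up to 3 with 1 library left out. The cause of these changes was not tested, except that leaving out a library reduces the libraries to 3.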
